A study of Mus musculus with 2 samples.

Results

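The genes described here encode the spectrin-actin skeleton that lies under the red cell membrane. They are Sptb, Ank1, Epb41, Dmtn, Add1, Add2, Add3, Tmod1 and Tmod3, chosen by name and found through their Ensembl identifiers, and they make up 9 of the 69691 rows of the gene tables. Polyadenylated RNA had been sequenced from single ends in G1E-ER4, a mouse erythroid line made from Gata1-null G1E cells that carries GATA-1 joined to an oestrogen receptor domain. Both libraries came from cells given 10 nM 17beta-estradiol for 24 hours, which activates the fusion protein and starts maturation, and the labels number them biological replicates 1 and 2. They form 1 group without an untreated control, so every value is a description of the induced state and no p-value is given. Whether the replicates were grown apart is not stated beyond the word biological, and the line as a model is limited to 1 engineered line in culture.

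The red cell skeleton is a mesh of long spectrin tetramers whose ends meet at short actin filaments. Ankyrin ties spectrin to the band 3 anion exchanger, and protein 4.1 strengthens the contact between spectrin and actin at the junctions. Adducin and tropomodulin cap the opposite ends of the short filaments, and dematin bundles actin there. The mesh gives the red cell its shape and its ability to deform, and inherited defects of several of its proteins cause hereditary spherocytosis or elliptocytosis.

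The libraries held 20412826 and 18564086 expected counts, which are estimates that divide a read among the places it fits. All 9 measured erythroid markers passed 1 TPM, a level scaled by transcript length and by library, in both libraries. None of 10 muscle and none of 6 fibroblast markers did, and 1 of 6 neuronal, 1 of 6 macrophage and 4 of 6 megakaryocyte markers did. The erythroid markers include Gata1, which these cells carry in the introduced fusion, so its detection does not speak to cell type. Ahsp, also on the erythroid list, was not measured. In bulk RNA, fewer expressing cells and less RNA per cell cannot be told apart.

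All 9 skeleton genes reached 1 TPM in both libraries, as did 41.2% of 21461 nuclear protein-coding genes. A level of 100 TPM or more in both was reached by 6 of the 9, beside 5.47% of nuclear protein-coding genes. The median of the 9 mean levels was 289 TPM, and that of the 8840 detected nuclear protein-coding genes was 20.7 TPM. Together the 9 genes held 2745 TPM in replicate 1 and 2958 TPM in replicate 2, or 1.13% and 1.21% of expected counts.

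**Figure D1:**
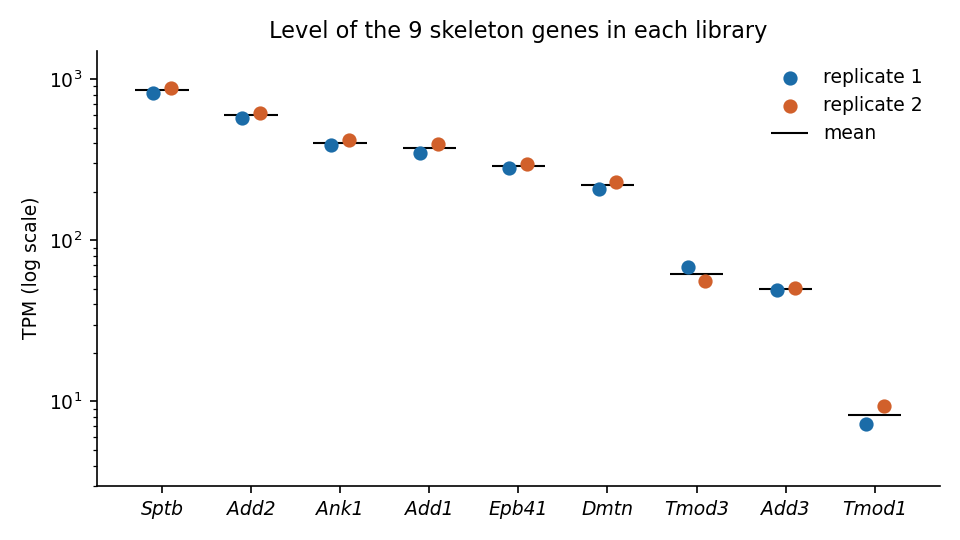
TPM of each gene (log axis) in replicate 1 and replicate 2, with a black line at the mean of both. Sptb was highest at 821 and 885 TPM, 6 genes lay above 100 TPM, and Tmod1 was lowest at 7.25 and 9.31 TPM.

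Sptb encodes beta-spectrin, a chain of the spectrin filaments of the mesh. It stood at 821 TPM in replicate 1 and 885 TPM in replicate 2, or 853 ± 44.9 TPM (SD, n = 2), from 106537 and 104517 expected counts. Among nuclear protein-coding genes its rank was 126 and 119. The general beta-spectrin gene Sptbn1 stood at 3.56 and 3.49 TPM. Sptb exceeded it by 7.92 ± 0.10 on the log2 scale of TPM (SD, n = 2), a 242-fold difference. Sptan1, a general spectrin gene, had 23 and 8 counts.

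The Sptb gene (chromosome 12, 76580488 to 76710547, minus strand, GRCm38) has alternative coding ends. Sptb-202, with 2137 codons, held 98.3% of Sptb TPM in replicate 1 and 98.5% in replicate 2. Sptb-201, with 2329 codons, held 1.67% and 1.55%. The longer end, which contains a pleckstrin homology domain, is known from muscle and brain. The quantifier's own posterior SD for Sptb-202 was 67.6 counts among 104264 in replicate 1, so the division was tight. The last coding bases of both forms are shown because they tell the abundant from the rare form, with the stop codon in capitals:
Sptb-202: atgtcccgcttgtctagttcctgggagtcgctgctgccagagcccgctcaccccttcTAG
Sptb-201: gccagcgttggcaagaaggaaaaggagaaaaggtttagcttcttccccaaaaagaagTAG
The first sequence lies at chr12:76597657-76597716 and the second at chr12:76583225-76583284.

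Ank1 encodes erythroid ankyrin, the adaptor between beta-spectrin and band 3. Its level was 388 TPM in replicate 1 and 420 TPM in replicate 2 (404 ± 23.0, SD, n = 2). Sptb was above Ank1 by a log2 ratio of 1.08 in the first library and 1.07 in the second, a 2.11-fold difference. Of the other ankyrin genes, Ank2 had 9.88 and 8.91 TPM, and Ank3 had 1 count in each library.

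Ank1 (chromosome 8, 22974844 to 23150497, plus strand) had 17 transcripts in the tables, and their first exons fall into separate places. Among coding transcripts with an annotated start, those beginning at chr8:23035099-23035245 held 63.5% and 67.6% of TPM, 65.5% ± 2.89 (SD, n = 2). Those beginning at chr8:23058275-23058670 held 27.2% and 23.8%. The remaining place of note, chr8:23139030-23139495, is the start of small ankyrin, a short form known from the sarcoplasmic reticulum of muscle that lacks the ankyrin repeats. It held 8.82% and 8.33% of TPM but 1.87% and 1.41% of expected counts, because its transcripts are short. The most upstream start, at chr8:22974844-22975261, held 0.470% and 0.306%. Ank1-209, which begins there, had 0 and 0.04 counts, but its posterior SDs were 2438 and 1865 counts. By posterior mean TPM it held 3.58% and 3.27% of Ank1. Ank1-207, at the start at chr8:23058275-23058670, had posterior SDs of 2457 and 2042 counts. The shares of these starts are therefore uncertain. The first coding bases at the leading 3 starts differ as follows, with the start codon in capitals:
Ank1-205: ATGggcttctgtaaa
Ank1-207: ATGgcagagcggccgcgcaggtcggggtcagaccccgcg
Ank1-208: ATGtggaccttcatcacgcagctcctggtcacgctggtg
For Ank1-205 and Ank1-207 this is all the coding sequence of the first exon, and for Ank1-208 its first 39 bases. They begin at chr8:23035231, chr8:23058632 and chr8:23139277. Values at the small ankyrin start carry 2 limits. The antisense gene Gm15816 overlaps it with 251 and 235 counts, and shares 726 stretches of 36 bases with Ank1, and the 2 transcripts concerned changed places, with Ank1-208 at 453 and 114 counts and Ank1-201 at 212 and 373. Of the muscle markers, Myh1, Tnnt2, Tnnt3, Myod1 and Myog were at 0 in both libraries, and all 10 summed to 0.170 and 0.350 TPM.

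Among single Ank1 transcripts, Ank1-213 led with 39.7% and 40.4% of Ank1 TPM. Ank1-207 held 22.9% and 18.4%, Ank1-205 15.1% and 17.5%, Ank1-210, annotated for nonsense-mediated decay, 4.86% and 6.21%, and the small ankyrin model Ank1-201 3.43% and 6.10%. Ank1-213 and Ank1-205 share their first coding exon and part at the 3' side, where Ank1-205 uses an exon of 125 bases that holds its stop codon and Ank1-213 skips it. That exon was included in 50.2% and 45.8% of spanning coding TPM, so neither coding end prevailed. The coding ends are printed with the stop codon in capitals:
Ank1-205: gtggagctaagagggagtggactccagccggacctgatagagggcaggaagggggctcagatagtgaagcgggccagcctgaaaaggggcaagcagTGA
Ank1-213: gatcacacctcaacacccaaacccTGA
They lie at chr8:23141596-23141694 and chr8:23148281-23148307. The posterior SD of Ank1-207 was 2457 of 11636 counts in replicate 1, or 21.1%, so its share is among the less certain ones.

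Epb41 encodes protein 4.1R, which binds spectrin and actin together at the junctions. Its levels were 282 and 296 TPM (289 ± 9.81, SD, n = 2). Of its relatives, Epb41l5 had 8.62 and 13.2 TPM, and Epb41l2 had no read in either library. Against a floor of 3 counts in each library, Epb41 was at least 6482-fold higher than Epb41l2 in replicate 1 and at least 6195-fold higher in replicate 2. Epb41l1, Epb41l3 and Epb41l4b also had no read.

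**Figure D2:**
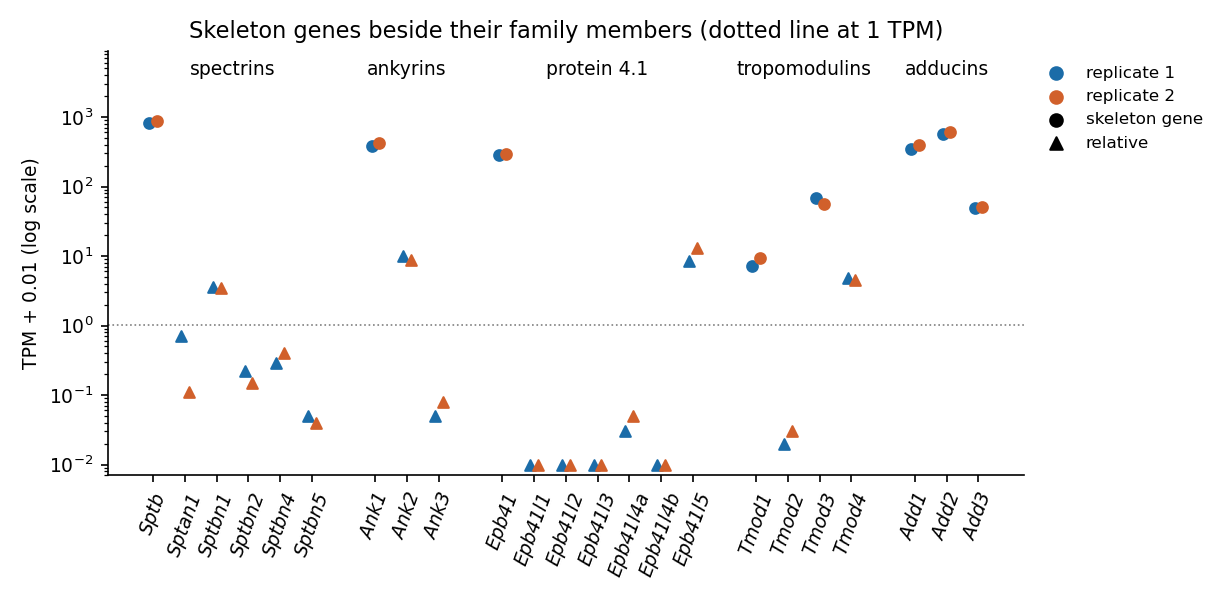
TPM plus 0.01 (log axis) in both libraries for the skeleton genes (circles) and their family members (triangles), with 0.01 marking genes without a read. Sptb, Ank1 and Epb41 lie 1 or more orders of magnitude above the family members shown, while Tmod3 rather than Tmod1 is the highest tropomodulin.

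Epb41 (chromosome 4, 131923413 to 132075321, minus strand) had 18 transcripts and the lowest leading share of the 9 genes. Epb41-215 led in replicate 1 with 30.5% of TPM but held 21.7% in replicate 2, and Epb41-216 led in replicate 2 with 31.9% against 26.3%. Epb41-202 held 19.8% and 14.4%, and Epb41-206 6.54% and 18.7%. Epb41-202 and Epb41-206 differ mainly by an exon of 105 bases, and their posterior SDs in replicate 1 were 35.6% and 83.1% of their counts. The difference of that exon between the libraries, 79.5% and 47.4% of spanning coding TPM, therefore rests on an uncertain division.

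Protein 4.1R is made in forms that depend on its splicing, and 2 of these sites bear on the red cell. The exon called exon 16 encodes part of the spectrin-actin binding domain, and its inclusion is known to rise as erythroblasts mature. The 63-base exon at chr4:131962924-131962986 was on 48.8% of spanning coding TPM in replicate 1 and 46.3% in replicate 2 (47.5% ± 1.77, SD, n = 2). By expected counts its share was 41.1% and 37.7%, and over all transcripts, coding or not, 32.9% and 35.5% of TPM. Most of it lay on Epb41-216, at 74.2 and 94.2 TPM, a model whose 5' end is missing. What its molecules carry upstream is thus not given by the annotation. The leading complete models, Epb41-202 at 55.7 and 42.5 TPM and Epb41-206 at 18.4 and 55.3 TPM, skip the exon. Its share therefore depends on counting Epb41-216. The exon reads, in the sense of the mRNA:
Epb41 exon: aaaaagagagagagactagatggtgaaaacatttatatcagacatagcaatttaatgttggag

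The other site is the acceptor of the exon that holds the annotated upstream start codon. Its acceptor sites lie 17 bases apart, and the segment between them carries that start codon, here in capitals:
Epb41 segment: gaacatcATGacaacag
This segment lies at chr4:132007422-132007438. Transcripts that leave it out are known in erythroid cells, where translation then begins at a start codon farther downstream and yields the smaller red cell protein. Among transcripts with an exon upstream of the site, those using the shorter exon held 85.2% of TPM in replicate 1 and 85.1% in replicate 2, and 90.9% and 91.1% of expected counts. Nearly all of it was Epb41-215, with 6948 and 4725 counts, for which the annotation gives no coding sequence. Among coding transcripts with an exon upstream, those using the shorter exon held 0% of TPM in replicate 1 and 11.2% in replicate 2. These shares leave out 3 models, among them Epb41-202 and Epb41-206, that begin inside this exon and contain the upstream start codon. They held 74.2 and 97.8 TPM, beside 85.9 and 64.8 TPM for the short-acceptor transcripts and 14.9 and 11.4 TPM for the long ones. With them counted, the segment was left out of 49.1% of TPM in replicate 1 and 37.3% in replicate 2 (43.2% ± 8.38, SD, n = 2). The share of the short acceptor therefore depends on which models are counted.

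**Figure D3:**
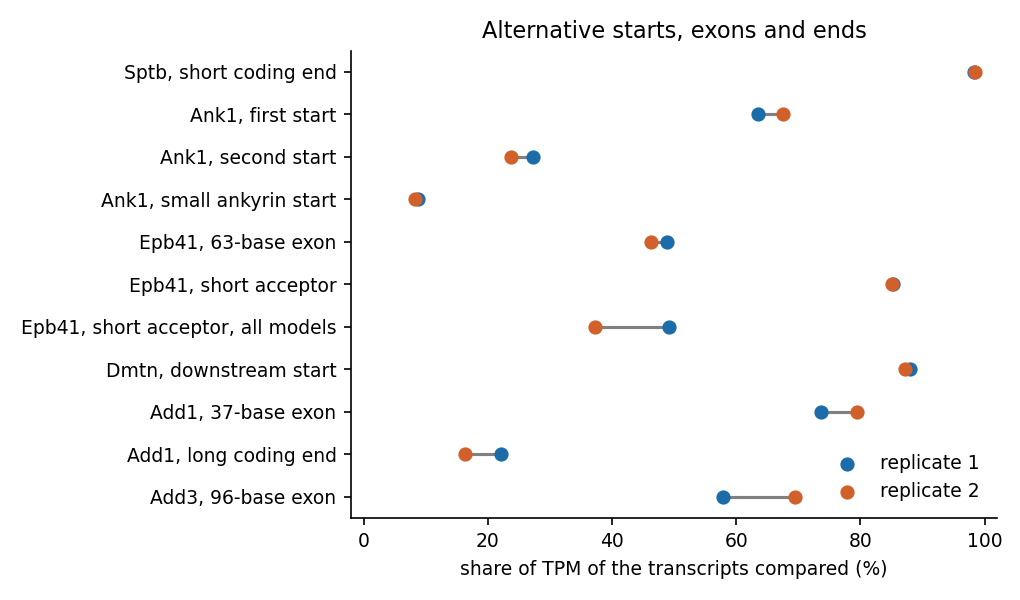
Share of TPM (%) held by selected starts, exons and coding ends in replicate 1 and replicate 2, with the Epb41 acceptor among transcripts with an exon upstream and among all models. The Sptb and Dmtn points nearly coincide, as do those of the Epb41 acceptor with an exon upstream, which differ at 49.1% and 37.3% with all models.

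Dmtn encodes dematin, an actin-bundling protein of the junctions. Its levels were 208 and 230 TPM (219 ± 15.4, SD, n = 2), a log2 ratio of -1.44 ± 0.03 to Add2. Dmtn-203, with 383 codons, held 87.6% and 87.2% of Dmtn TPM, and Dmtn-202, with 380 codons, held 12.1% and 12.8%. Their first exons lie at chr14:70626739-70627054 and chr14:70635820-70636048. The more upstream of these on the minus strand was thus the minor start in both libraries.

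Adducin, the cap of the fast-growing filament end, is built from alpha, beta and gamma subunits encoded by Add1, Add2 and Add3. In the red cell the main partners are alpha and beta, while alpha and gamma are widespread in other tissues. Add2 stood at 573 and 617 TPM (595 ± 31.6, SD, n = 2), Add1 at 349 and 394 TPM (372 ± 32.3) and Add3 at 48.9 and 50.4 TPM (49.7 ± 1.02). The order was the same in both libraries, and the ranges of the 3 genes did not overlap. Add2 exceeded Add3 by 3.58 ± 0.05 on the log2 scale of TPM, a 12.0-fold difference, and Add1 exceeded Add3 by 2.90 ± 0.10. Add2 lay above Add1 by 0.68 ± 0.05, a 1.60-fold difference.

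The last of these ratios depends on what is counted as Add1. Add1-213, a model of 2370 bases whose 5' end is missing, held 43.8% and 46.4% of Add1 TPM. Counting only coding models with both ends annotated, Add1 stood at 167 and 163 TPM and the log2 ratio of Add2 to Add1 was 1.85. For Add2 this could not be asked, since Add2-201 was its sole quantified transcript. The Add2 transcripts of GENCODE M21 hold 10199 stretches of 36 bases, beside 3084 in Add2-201, so forms exist that were not quantified.

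The adducins end in a lysine-rich stretch related to the MARCKS protein, which takes part in binding spectrin and actin and in regulation by calmodulin. The last 20 codons of the longest complete form of each gene are shown, with lysine codons in capitals:
Add1-205: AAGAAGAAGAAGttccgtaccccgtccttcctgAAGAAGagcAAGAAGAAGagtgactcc
Add2-201: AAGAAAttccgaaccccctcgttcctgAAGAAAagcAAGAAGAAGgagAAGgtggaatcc
Add3-201: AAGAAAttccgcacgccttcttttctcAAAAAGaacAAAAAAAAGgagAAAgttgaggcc
They lie at chr5:34630754-34630813, chr6:86118719-86118778 and chr19:53245228-53245287, all on the plus strand. Lysine codons number 9 of 20 in Add1-205, 8 in Add2-201 and 8 in Add3-201. Every quantified Add2 and Add3 model has this end, but most Add1 TPM lay on models that do not. There, an exon of 37 bases at chr5:34629136-34629172 ends the coding sequence ahead of the lysine-rich stretch:
Add1 exon: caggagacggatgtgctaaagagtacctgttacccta
It was included in 73.7% and 79.5% of spanning coding Add1 TPM (76.6% ± 4.06, SD, n = 2). Most of that lay on Add1-213, the model whose 5' end is missing, at 153 and 183 TPM. The complete models with the exon, Add1-204 and Add1-201, stood at 51.9 and 63.5 TPM and at 31.4 and 28.1 TPM. Add1-205, which skips the exon, stood at 70.7 and 56.6 TPM, so the share depends on counting Add1-213. The last 20 codons of Add1-204, which includes it, hold 2 lysine codons. The long end was left with 22.1% and 16.4% of coding TPM, all on Add1-205, which has 735 codons against 632 in Add1-204 and 663 in Add1-201. Add1-205 held 20.3% and 14.4% of all Add1 TPM, Add1-204 14.9% and 16.1%, and Add1-201 8.99% and 7.12%. Add1-207, a retained intron, had 0 counts in replicate 1 and 254 in replicate 2.

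Add3 differed in another place. Add3-201, with 706 codons, held 57.9% and 69.5% of TPM, and Add3-202, with 674 codons, held 41.1% and 29.8%. The first contains an exon of 96 bases ahead of the common end, at chr19:53244310-53244405:
Add3 exon: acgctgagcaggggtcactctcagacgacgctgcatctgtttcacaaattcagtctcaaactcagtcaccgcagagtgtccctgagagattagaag
The second lacks it. These 2 models also begin at different first exons, so the values do not separate the choice of start from that of the exon. The 250 bases ahead of each start are shown because the share of the 2 starts differed between the libraries:
Add3-201 upstream: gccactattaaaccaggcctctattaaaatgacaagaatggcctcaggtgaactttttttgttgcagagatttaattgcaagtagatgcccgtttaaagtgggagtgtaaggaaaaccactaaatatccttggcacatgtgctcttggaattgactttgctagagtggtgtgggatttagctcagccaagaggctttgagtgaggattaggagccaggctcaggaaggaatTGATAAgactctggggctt
Add3-202 upstream: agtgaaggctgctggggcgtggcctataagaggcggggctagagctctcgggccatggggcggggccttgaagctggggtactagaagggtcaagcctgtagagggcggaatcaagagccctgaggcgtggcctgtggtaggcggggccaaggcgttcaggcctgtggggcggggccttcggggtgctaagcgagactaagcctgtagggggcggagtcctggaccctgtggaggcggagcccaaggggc
These sequences, from RefSeq (GRCm38.p6), lie at chr19:53143747-53143996 and chr19:53142506-53142755 on the plus strand. In capitals is the only match to AGATAA or TGATAA, the letters of a GATA site, on either strand of both. Of all 32851 promoter windows of 300 bases, 18.6% hold such a match, and 1 of 10 windows of skeleton genes does. CCNCNCCC, the letters of a KLF site, occurred in 8 of the 10 windows and in 49.5% of all, and TATAAA in 1 of the 10 and in 13.6% of all. Windows were found for 6 of the 9 genes, not for Ank1, Dmtn and Tmod3, and the matches describe letters only. Some windows lie away from the starts of abundant transcripts. The Add2 window is at chr6:86028431-86028730, whereas Add2-201 begins at 86078084. The Sptb window surrounds the start of Sptb-201 at 76710547, whereas Sptb-202 begins at 76710023. No Epb41 window covers 132007438, where Epb41-206 begins.

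Tropomodulins cap the slow-growing end of actin filaments. Tmod1 is the form known from the mature red cell membrane and Tmod3 the general form of most cells. Tmod3 stood at 68.5 TPM in replicate 1 and 55.6 TPM in replicate 2 (62.1 ± 9.14, SD, n = 2). Tmod1 was the lowest of the 9 genes, at 7.25 and 9.31 TPM (8.28 ± 1.46), with 336 and 261 counts. Tmod3 was above Tmod1 in both libraries, at log2 ratios of 3.24 and 2.58 and a mean of 2.91 ± 0.47, a 7.51-fold difference. Tmod4 had 4.86 and 4.52 TPM, and Tmod2, a neuronal form, had 1 and 3 counts.

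The coding transcript Tmod1-201 held 330 of the Tmod1 counts in replicate 1 and 221 in replicate 2. Its share of Tmod1 TPM was 90.8% in the first and 51.9% in the second, the rest lying on Tmod1-205, Tmod1-202 and Tmod1-204, of 430, 1186 and 396 bases. Of these, Tmod1-202 had the most counts, 22.8 in replicate 2, and their TPM is large because they are short. Restricted to Tmod1-201, Tmod1 stood at 6.58 and 4.83 TPM, and the log2 ratio of Tmod3 to Tmod1 was 3.45. Of the stretches of 36 bases in Tmod1 transcripts 68.2% occur in no other gene. The other 1252 all lie in Tstd2 as well, which overlaps the 3' end of Tmod1 on the opposite strand and had 597 and 624 counts. For the other 8 genes the unique share ran from 94.8% in Ank1 to 100% in Add3, and none of 36 pairs of the 9 genes shared such a stretch.

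**Figure D4:**
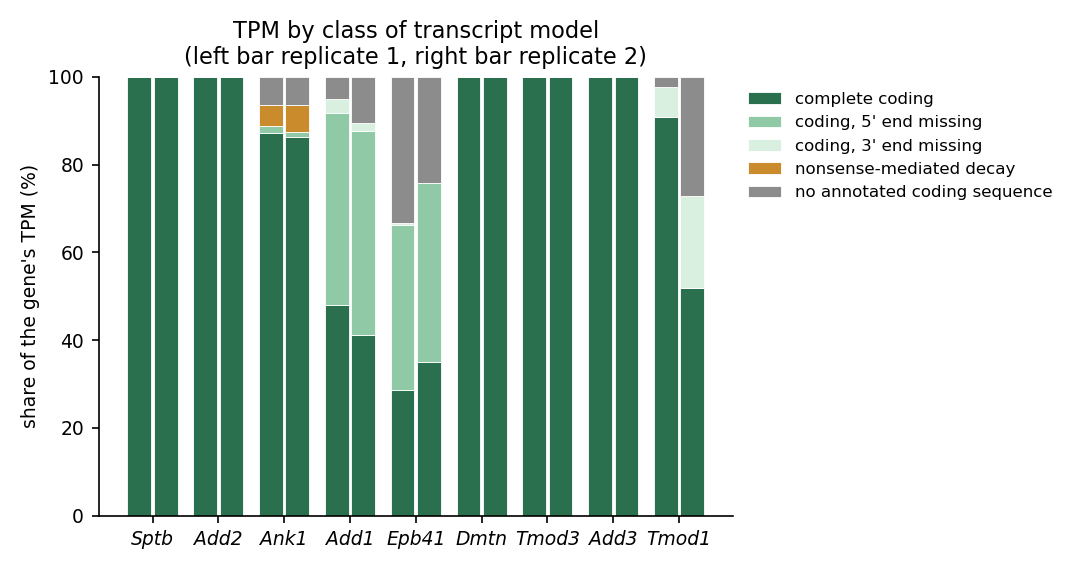
Share of each gene's TPM (%) by class of transcript model, left bar replicate 1 and right bar replicate 2. Sptb, Add2, Dmtn, Tmod3 and Add3 lie wholly on complete coding models, whereas Epb41 has 28.7% and 35.0% there and Add1 48.0% and 41.2%. Add2 and Tmod3 had 1 quantified transcript each.

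In order of mean TPM the genes ran Sptb, Add2, Ank1, Add1, Epb41, Dmtn, Tmod3, Add3 and Tmod1. Neighbours in this order did not overlap between libraries, except Ank1 and Add1, whose ranges of 388 to 420 and 349 to 394 TPM overlap, although Ank1 was the higher in each library. With complete coding models alone, Epb41 stood at 92.2 TPM and Add1 at 165 TPM, and both were below Dmtn.

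The replicates were about as close for the skeleton genes as for all genes with at least 50 counts on average. Apart from Tmod1, the skeleton genes had 2878 or more counts in each library, and genes of like depth were not compared. After TMM scaling of expected counts, none of the 9 was over 1.5-fold apart, beside 3.83% of 9309 genes with at least 50 counts on average, and none was over 2-fold apart, beside 1.05%. Tmod3 differed most, with a log2 ratio of replicate 1 to replicate 2 of 0.29 and a 95% Clopper-Pearson interval for counting error of 0.22 to 0.36. Of the 9309 genes, 19.4% were at least as far apart as Tmod3. For 7 genes the value was higher in replicate 2, by log2 amounts between -0.05 for Add3 and -0.15 for Dmtn. Of the 9309 genes, 46.9% were at least as far apart as Dmtn, in either direction. Their median signed log2 ratio was 0.004, and how many of them were higher in replicate 2 was not counted. Whether the skeleton genes share a shift was therefore not tested. The counting interval of Add3, -0.12 to 0.02, spans both signs. Sptb, Add2, Ank1 and Add1 lay close together at -0.12, -0.12, -0.12 and -0.11. Tmod1 was higher in replicate 1 by counts, at 0.22 with an interval of -0.02 to 0.46, and higher in replicate 2 by TPM, at -0.36, so its direction depends on the unit. Over all genes the median absolute log2 difference was 0.14, and over the skeleton genes 0.12.

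**Figure D5:**
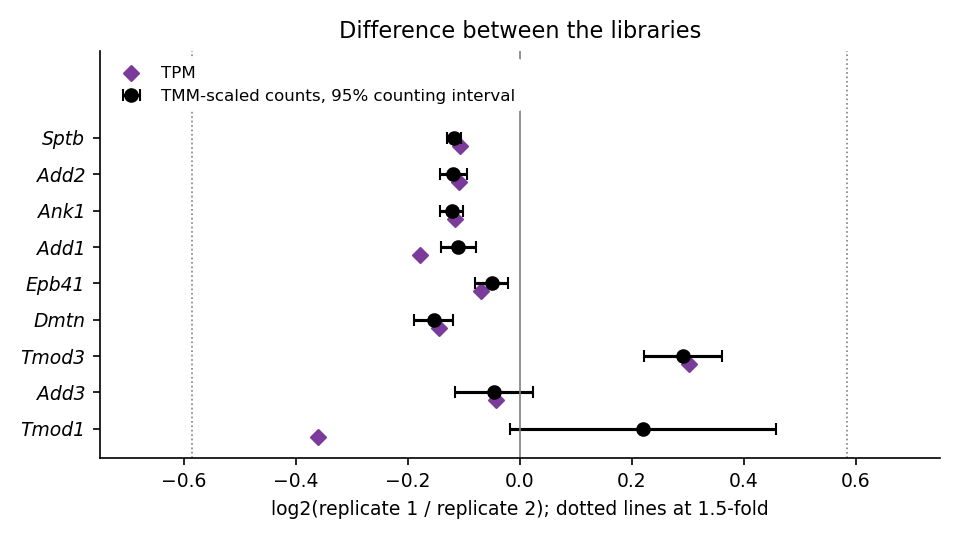
log2 of replicate 1 over replicate 2 for each gene, as TMM-scaled counts with their 95% counting interval (black) and as TPM (purple diamonds), with dotted lines at 1.5-fold. All points lie inside the dotted lines, Tmod3 at 0.29 is the farthest by counts, and Tmod1 changes side with the unit.

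The anchors and partners of the skeleton were mostly present. Of 16 genes 14 were detected and 9 passed 100 TPM in both libraries, with a list median of 123 TPM. Over all nuclear protein-coding genes, 41.2% were detected and 5.47% reached 100 TPM in both libraries. Actb, the beta-actin gene, had 1638 and 1948 TPM, and Slc4a1, the gene of band 3, 578 and 622 TPM. Ermap, a blood group protein gene, had 302 and 322 TPM. Gypc, whose product glycophorin C binds protein 4.1, had 250 and 255 TPM, and Mpp1, whose product joins that complex, 164 and 176 TPM. Tropomyosin lies along the short filaments, and of its genes Tpm1 had 210 and 179 TPM and Tpm3 45.4 and 44.6, whereas Tpm2 had 1 and 0 counts and Tpm4 3 in each library. Epb42, the gene of protein 4.2, a partner of band 3 and ankyrin, stood at 10.1 and 12.6 TPM.

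Among 25 relatives of the skeleton genes, 4 were detected, namely Ank2, Epb41l5, Tmod4 and Sptbn1, and 9 had no read. Their list median was 0.025 TPM, beside 0.080 TPM over all 21461 nuclear protein-coding genes. Of those 21461 genes 41.2% were detected and 5.47% reached 100 TPM in both libraries. None of the relatives reached 100 TPM. The list was chosen for its kinship with the skeleton genes and holds several muscle and neuronal genes, and the muscle and neuronal markers summed to at most 0.350 and 2.40 TPM in either library.

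Other genes that act on actin filaments covered a wide range. Of 10 such genes 9 were detected and 3 passed 100 TPM in both libraries, with a list median of 63.4 TPM. The shares over all nuclear protein-coding genes were 41.2% and 5.47%. Cfl1, encoding the severing protein cofilin, had 965 and 996 TPM, Arpc2, of the Arp2/3 complex, 222 and 231, and Capzb, a subunit of the general capping protein of the end that adducin caps, 200 and 211. Tln1, encoding talin, had 99.3 and 109 TPM, Myh9, the non-muscle myosin heavy chain gene, 67.0 and 79.4, and Capza2 68.5 and 38.5. Lower were Capza1 at 11.1 and 8.32 TPM, Capg at 3.04 and 3.16, Gsn, encoding the severing protein gelsolin, at 1.19 and 1.08, and Myh10 at 0.740 and 0.770.

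Of 10 splicing factors on a list drawn up for exon 16 of Epb41, 8 were detected and 5 passed 100 TPM. The shares over all nuclear protein-coding genes were 41.2% and 5.47%. The list median was 141 TPM. Hnrnpa1 had 962 and 880 TPM, Hnrnpa2b1 860 and 576, Ptbp1 458 and 501, Mbnl1 344 and 410, Srsf1 217 and 212 and Celf1 65.4 and 67.4. Rbfox2, known to promote inclusion of this exon in erythroid cells, had 9 and 5 counts, and Rbfox1 had none. Their part in the exon share given above was not tested.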

How the data were processed

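Values are described for 2 libraries of 1 group. Per the deposited manifests, reads were placed on mm10 with the GENCODE M4 annotation; aligner, quantifier and use of strand: not given in the sources used here. The authors deposited expected counts, TPM and FPKM per gene and transcript. Isoform columns, per the file headers, are the percent of gene TPM that falls on an isoform and a posterior mean TPM, used here as a score in an alternative. The posterior SD of a count is the authors' and covers the division of reads alone.

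Symbols, exons and coordinates came from GENCODE M21 (GRCm38), matched by identifier without version; all 64 transcripts of the 9 genes matched, and 3 of the 25 at 5% or more of a gene's TPM have another length there. Sequences came from the M21 transcripts and, for promoters, from RefSeq.

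Detection was 1 TPM in both libraries. Expected counts were rounded and scaled by TMM (edgeR 4.0.16, R 4.3.3) over genes with 10 or more counts in both, with DESeq2 1.42.0 size factors as an alternative. The ratio script was tested on simulated data. Counting intervals are 95% Clopper-Pearson and cover counting error only; 0 reads allow up to 3 counts. No test was run, since the smallest exact p that 2 libraries allow is 0.5. Exon shares use TPM of coding transcripts that span the site. Start and coding-end shares use coding transcripts with that end annotated. Shares of the Epb41 acceptor use all transcripts, coding or not, except where coding transcripts are named. Named were all 9 genes, transcripts at 5% or more in either library, genes of 11 fixed ratios, up to 6 genes per list by TPM, and undetected list members where 5 or fewer; some of these are not reported here. Epb42, Tpm3, Capza1, Capg, Gsn and Ank1-208 were added after their values were seen. The genes and lists were chosen with earlier results of these data known.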

Additional observations from a re-analysis of the deposited data

How the results depend on the processing

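No paired analysis was possible because both libraries belong to 1 group. The median level of the 9 genes was 273 with posterior mean TPM, 359 with FPKM rescaled within nuclear protein-coding genes, 326 without the 4 adult globins and, in an alternative added after seeing the data, 165 with complete coding models alone; it ran from 282 to 296 TPM with either library left out. The share of the 63-base Epb41 exon was 39.4% by expected counts and 34.2% over all transcripts. The replicate ratio of Tmod1 reversed to -0.36 with TPM. Of the 10 gene ratios that held their sign in both libraries, none reversed under the alternatives that could be computed, which for Ank1 over Ank3 leave out those by coding models. The share of the short Epb41 acceptor was 91.0% by expected counts and 43.2% with models that begin in the exon, both added after seeing the data. Counts of detected list genes ran from 37 to 45 of 68, with 41 at 1 TPM. Isoform shares rest on reads of which few tell transcripts apart: Ank1-213, Ank1-207, Add1-205 and Epb41-202 hold no stretch of 36 bases of their own. With 2 libraries, an SD has 1 degree of freedom, and depth limits Tmod1 most.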

Other observations

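Calmodulin and calpain act on protein 4.1, adducin and spectrin in red cells. Of 7 genes of this kind 6 were detected, 5 of them above 100 TPM in both libraries. The shares over all nuclear protein-coding genes were 41.2% and 5.47%. Capns1, the small calpain subunit gene, had 463 and 582 TPM and Capn1, the large subunit gene of mu-calpain, 103 and 113 TPM, whereas Capn2 had no read in either library. The calmodulin genes Calm3 and Calm2 had 390 and 424 and 352 and 259 TPM. Cast, the gene of the calpain inhibitor calpastatin, had 25.0 TPM in replicate 1 and 22.0 TPM in replicate 2.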
